A study of Mus musculus with 12 samples.

Results

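Glomeruli of control mice of 2 inbred strains, C57BL6J and 129S2SvPAs, were compared. The comparison used the 6 control arrays, 3 per strain, out of 12 arrays in the series, and every probe set that the array annotation pairs with exactly 1 gene symbol. The mice were female, 8 to 10 weeks old and from Charles River, and their glomeruli were collected on day 4 by passing kidney tissue through nylon sieves of 100 and 45 µm. The other 6 arrays came from mice of the same strains (3 C57BL6J and 3 129S2SvPAs) with anti-GBM glomerulonephritis (GN), an antibody-driven injury of the glomerular basement membrane raised here by nephrotoxic serum on days 0, 1 and 2. The control arrays are set apart from these by their titles and treatment field; their free-text description carries the same nephritis wording as the GN arrays, and the labels do not say whether the controls received an injection. The labels spell the second strain 129S2SvPAS on the control arrays and 129S2SvPAs elsewhere.

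The glomerulus is the filter of the kidney. Podocytes wrap its capillaries and carry the slit diaphragm, fenestrated endothelium lines them, and mesangial cells hold the loops together. Inbred strains differ at many loci, so the same tissue of 2 strains can differ in transcript level, in transcript structure and in the sequence under an array probe, and a hybridisation difference and a transcript difference cannot be told apart at a single probe set. In whole glomeruli, fewer cells of a type and less RNA per cell cannot be told apart either.

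Values were log2 probe set signals. Their median over all arrays, 3.03, lay within the mass of dim probe sets and is called the floor here; differences of genes near it are understated. The medians of the control arrays were 3.01, 3.00 and 3.01 in C57BL6J and 3.03, 3.03 and 3.04 in 129S2SvPAs, a small offset that itself separated the strains. Each array stands for 1 mouse per the series' design text, and no 2 arrays held the same values. The arrays contained tubule RNA as well as glomerular RNA in both strains: Umod, the uromodulin of the thick ascending limb, was at 13.43, 13.47 and 13.54 in C57BL6J and 13.65, 13.55 and 13.50 in 129S2SvPAs, and Lrp2, the megalin receptor of the proximal tubule, was between 11.69 and 12.20. The defining podocyte marker Podxl (podocalyxin) was at 10.07 or above on each control array. Ren1 and Gapdh were not analysed here.

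Of 11921 genes tested, with the probe set of highest mean signal standing for each gene, 1005 (8.43%) differed between the control strains at an adjusted p under 0.05 in the limma fit with Benjamini-Hochberg adjustment. Of these, 396 (3.32%) were higher in 129S2SvPAs and 609 (5.11%) were lower. The difference was at least 1 on the log2 scale, a doubling of signal, for 570 genes (184 higher, 386 lower) and at least 2 for 134 (52 higher, 82 lower). The median difference over all genes tested was -0.003, and the strains' arrays did not overlap for 3765 genes (31.6%). With 3 arrays per strain some genes separate without a strain difference, and near the floor a small shift is enough. Bub1, for instance, was at 2.49, 2.47 and 2.47 in C57BL6J against 2.55, 2.58 and 2.63 in 129S2SvPAs and was not called. Without replicate 2 of the C57BL6J controls the count fell to 503, of which 495 were among the 1005. The split by direction moved too. Of the calls, 39.4% were higher in 129S2SvPAs in the main fit and 46.5% under quantile normalization (471 higher, 542 lower). With 1 array left out this share ran from 33.4% (129S2SvPAs control replicate 2) to 45.7% (129S2SvPAs control replicate 3).

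**Figure D1:**
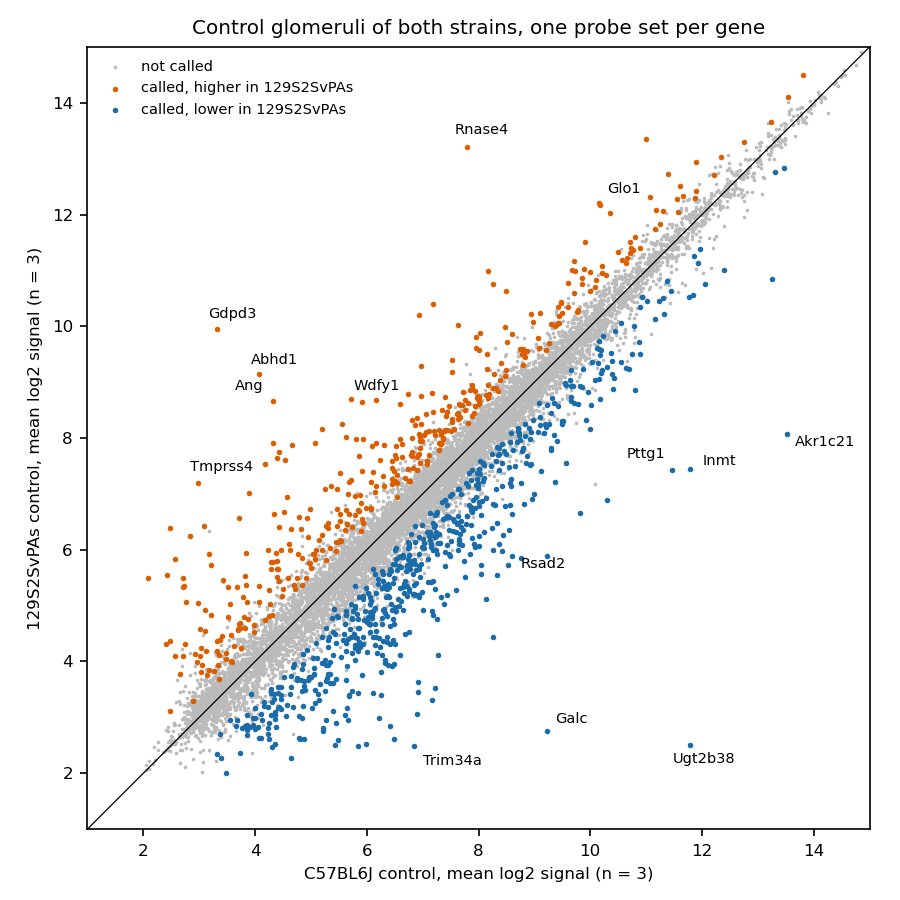
Mean log2 signal of each tested gene in the C57BL6J control arrays (horizontal axis) and the 129S2SvPAs control arrays (vertical axis), 3 arrays each, with the line of equality. Of the coloured genes, 396 lie above the line and 609 below; Ugt2b38, Galc and Trim34a sit near the floor in 129S2SvPAs, and Gdpd3 and Tmprss4 near the floor in C57BL6J.

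The largest differences included genes for metabolic enzymes and ribonucleases, and several were bright in one strain and at floor level in the other. Ugt2b38, a UDP-glucuronosyltransferase that conjugates lipophilic compounds, was at 11.97, 11.45 and 11.91 in C57BL6J and at 2.57, 2.48 and 2.49 in 129S2SvPAs. No 129S2SvPAs array rose above the floor, and the difference was -9.26 ± 0.15 (SE; limma adjusted p = 4.9e-11), a lower signal in 129S2SvPAs. The gene belongs to a family of close copies, and the share of its probes that other members bind is not known here.

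Galc, the lysosomal galactosylceramidase, was at 9.39, 9.14 and 9.13 in C57BL6J and at 2.68, 2.85 and 2.73 in 129S2SvPAs, a difference of -6.47 ± 0.24 (SE; limma adjusted p = 7.7e-08). All C57BL6J arrays were far above all 129S2SvPAs arrays. Its other tested probe set was near the floor in both strains, between 2.70 and 3.69, and so carried no second measurement. Trim34a, an interferon-inducible tripartite motif protein, was also near the floor in 1 strain: 6.97, 7.12 and 6.46 in C57BL6J against 2.43, 2.42 and 2.59 in 129S2SvPAs, with its other probe set between 3.02 and 3.56 throughout.

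Akr1c21, a hydroxysteroid dehydrogenase of the kidney, stayed well above the floor in both strains, at 13.55, 13.46 and 13.56 in C57BL6J and 8.28, 8.16 and 7.79 in 129S2SvPAs. The strains did not overlap, and the difference was -5.45 ± 0.44 (SE; limma adjusted p = 2.76e-05). Inmt, an N-methyltransferase of indoles and amines, was at 11.53, 11.91 and 11.92 against 6.56, 7.91 and 7.84, with 129S2SvPAs replicate 1 the lowest. Pttg1, the securin that holds back chromosome separation, was at 11.52, 11.47 and 11.41 in C57BL6J and 6.95, 7.44 and 7.88 in 129S2SvPAs. A second Pttg1 probe set differed by the same amount, -4.08 ± 0.20 (SE), and the third lay close to the floor.

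In the other direction, Gdpd3, a lysophospholipase D, was at 3.46, 3.19 and 3.29 in C57BL6J, close to the floor, and at 9.53, 10.25 and 10.10 in 129S2SvPAs. The difference was 6.65 ± 0.22 (SE; limma adjusted p = 2.85e-08). Abhd1, of the alpha/beta hydrolase family, was at 4.19, 3.91 and 4.13 in C57BL6J against 9.25, 9.32 and 8.87 in 129S2SvPAs. Each 129S2SvPAs array exceeded each C57BL6J array for both genes. Tmprss4, a transmembrane serine protease, was at 3.34, 2.71 and 2.91 against 7.23, 7.01 and 7.34. Aldh1a1, a retinaldehyde dehydrogenase that makes retinoic acid, was at 4.01, 4.46 and 4.47 against 8.27, 8.14 and 7.32.

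The secreted ribonucleases Rnase4 and Ang (angiogenin) were both higher in 129S2SvPAs. Rnase4 was at 8.31, 7.37 and 7.70 in C57BL6J and at 13.35, 13.24 and 13.06 in 129S2SvPAs, a difference of 5.42 ± 0.28 (SE; limma adjusted p = 1.12e-06). Ang was at 4.86, 3.47 and 4.62 against 8.87, 8.55 and 8.59, a difference of 4.35 ± 0.32 (SE; limma adjusted p = 1.81e-05). Neither gene overlapped between strains, and replicate 2 of C57BL6J was the lowest array for both. A second Ang probe set was also higher in 129S2SvPAs, by 2.65 ± 0.55 (SE). The third gave -0.91 ± 0.48 (SE) and was not called, although its arrays did not overlap between strains. Both of these are of types that can bind several transcripts.

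Rnase4 has 2 promoter entries in RefSeq (GRCm38.p6) and Ang 1, and they share 1 start. The 250 bases upstream of it, which the difference in both genes makes of interest, lie at chr14:51090827-51091076 on the plus strand. The sequence is of the reference assembly, which is C57BL/6J; that of 129S2SvPAs was not used here.
Rnase4 and Ang: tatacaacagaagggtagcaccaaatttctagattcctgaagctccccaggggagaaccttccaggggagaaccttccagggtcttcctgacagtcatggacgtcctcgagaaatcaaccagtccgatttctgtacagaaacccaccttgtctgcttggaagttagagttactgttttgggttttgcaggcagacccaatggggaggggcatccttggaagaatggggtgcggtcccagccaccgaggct

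**Figure D2:**
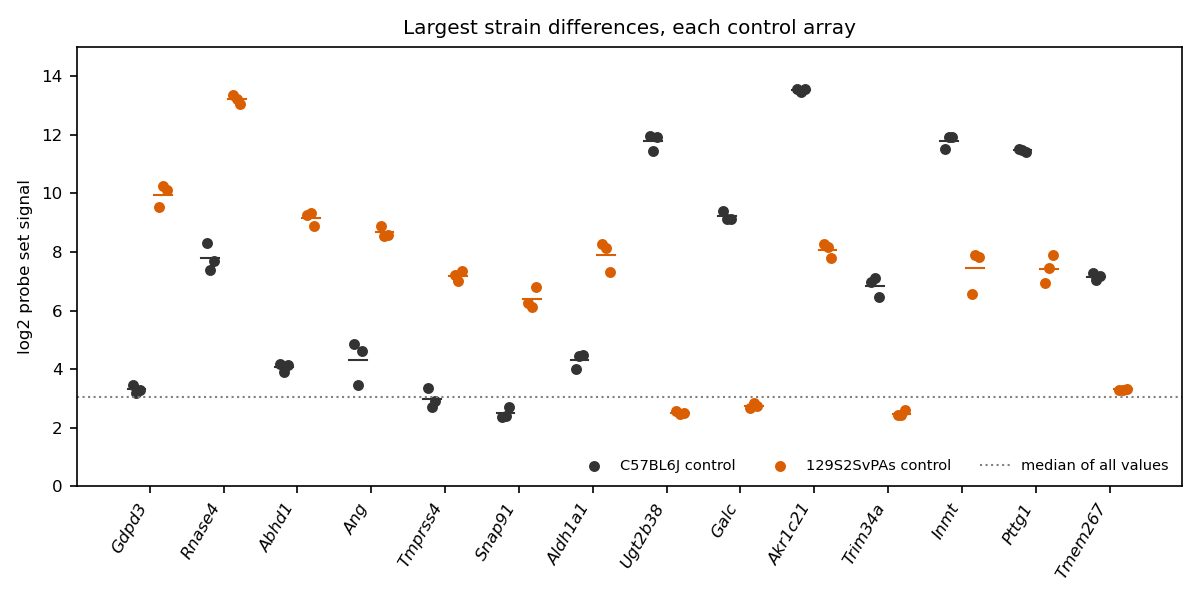
Log2 signal of 14 genes on each control array, with the strain mean as a short line and the median of all values, 3.03, as a dotted line. The 7 genes on the left are higher in 129S2SvPAs on each array and the 7 on the right lower; no gene shown overlaps between strains.

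In a near on-off pattern, all 3 arrays of one strain lay at most 0.5 above the floor. All 3 arrays of the other strain lay at 6 or more. Such patterns were found for 11 called genes. Of these, 4 were near the floor in C57BL6J (Gdpd3, Tmprss4, Snap91 and Cacna2d2). The other 7 were near it in 129S2SvPAs (Ugt2b38, Galc, Trim34a, Pcp4l1, Tmem267, Rpgrip1 and Gpx6). Snap91, a clathrin adaptor of synapses, was at 2.37, 2.39 and 2.69 in C57BL6J against 6.27, 6.11 and 6.81. Gpx6, a glutathione peroxidase, was at 6.16, 6.94 and 6.12 against 2.60, 2.66 and 3.29 in 129S2SvPAs. Tmem267, a membrane protein, had the smallest standard error of the 11 (0.11), at 7.27, 7.03 and 7.18 against 3.28, 3.30 and 3.33.

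Whether a difference held beyond 1 probe set could be asked of the 383 called genes with more than 1 tested probe set; the other 622 had only 1. In 145 of the 383 (37.9%) at least 2 probe sets were called in the same direction, and in 91 (23.8%) all were. The fit over all 20321 tested probe sets called 1483 (7.30%). Of the 608 other probe sets of called genes, 507 (83.4%) had the sign of the gene's main probe set and 186 (30.6%) were called the same way, beside 4.29% called among the other probe sets of genes that were not called. Among genes not called, 63.9% of other probe sets shared the sign. Restricted to the 509 other probe sets above the floor in at least 1 strain, 446 (87.6%) shared the sign and 181 (35.6%) were called the same way; 13 were called the opposite way. Probe sets of a gene read the same RNA and are not replicates of a strain.

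Glo1, the glyoxalase that detoxifies methylglyoxal and is known for a duplication in several inbred strains, was higher in 129S2SvPAs at 4 of 4 probe sets. The main one was at 10.12, 10.09 and 10.27 in C57BL6J and 12.29, 11.97 and 12.34 in 129S2SvPAs. Over the 4, differences ran from 1.28 ± 0.11 to 2.04 ± 0.12 (SE), all without overlap between strains. Wdfy1, an endosomal adaptor of Toll-like receptor signalling, was higher at 3 of 4 tested probe sets. Its main one was at 5.79, 5.88 and 6.07 against 8.67, 8.57 and 8.68, a difference of 2.73 ± 0.11 (SE; limma adjusted p = 9.87e-08), and the exception was near the floor. Serpinb8, an intracellular protease inhibitor, was higher by 3.37 ± 0.31 and 2.41 ± 0.34 (SE) at its 2 probe sets.

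Nnt, the mitochondrial transhydrogenase that makes NADPH, is known for a deletion within the gene in the C57BL/6J substrain. It was at 9.90, 9.59 and 9.68 in C57BL6J and 11.15, 11.09 and 10.73 in 129S2SvPAs. The strains did not overlap, the C57BL6J signal was far from the floor, and the 2 probe sets differed by 1.27 ± 0.18 and 1.61 ± 0.17 (SE). Pm20d1, an N-acyl amino acid synthase and hydrolase, was higher in 129S2SvPAs at both probe sets, by 2.82 ± 0.23 and 3.22 ± 0.21 (SE). Mttp, the microsomal triglyceride transfer protein, was at 6.23, 6.35 and 5.93 against 7.85, 7.90 and 7.99 and was likewise called at both of its probe sets.

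Among genes lower in 129S2SvPAs, Dpys, the dihydropyrimidinase of pyrimidine breakdown, was at 6.75, 6.71 and 7.31 against 2.78, 3.91 and 3.67 and was called at both probe sets. Hsd3b3, a steroid dehydrogenase, was at 7.90, 8.35 and 8.53 against 5.98, 6.14 and 5.84. Col1a2, a chain of fibrillar collagen I, was at 8.01, 8.09 and 8.04 against 5.83, 5.73 and 5.16. None of the 3 overlapped between strains, and each was lower at all of its tested probe sets.

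Some genes had probe sets that disagreed, 15 of them with calls in both directions. For Xaf1, an interferon-inducible antagonist of apoptosis inhibitors, one probe set was at 7.46, 7.46 and 6.89 in C57BL6J against 3.54, 4.45 and 4.34 in 129S2SvPAs. The other showed the reverse, at 3.81, 2.62 and 3.22 against 7.0, 7.72 and 7.18, so the sign of Xaf1 depended on the probe set. Adi1, an enzyme of methionine salvage, was higher by 1.66 ± 0.11 (SE) at its brightest probe set and lower by -3.94 ± 0.23 and -0.93 ± 0.21 (SE) at the other 2. Rgs5, a regulator of G-protein signalling in pericytes, had its brightest probe set at -1.01 ± 0.18 and a dimmer one at 1.65 ± 0.21 (SE). Zfp945, Mapk8 and Osbpl3 also had calls in both directions.

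For other genes only 1 probe set differed. Of the 204 called genes with a difference of at least 1 and another tested probe set, 37 had no other probe set differing by 0.25 or more, and in 17 of the 37 at least 1 of those probe sets was above the floor. Sugct, a mitochondrial CoA transferase, was at 7.36, 6.91 and 7.38 against 3.38, 3.53 and 3.67 at one probe set. At the other, the strains overlapped, at 5.79, 5.28 and 5.27 against 5.26, 5.68 and 5.85. Psmb8, an interferon-inducible subunit of the immunoproteasome, differed by -1.75 ± 0.30 (SE) at one probe set and by 0.06 ± 0.09 at a dim one, and Hspg2 (perlecan), called in the gene fit (limma adjusted p = 0.0462), was called at neither of its 2 probe sets in the fit over all probe sets.

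**Figure D3:**
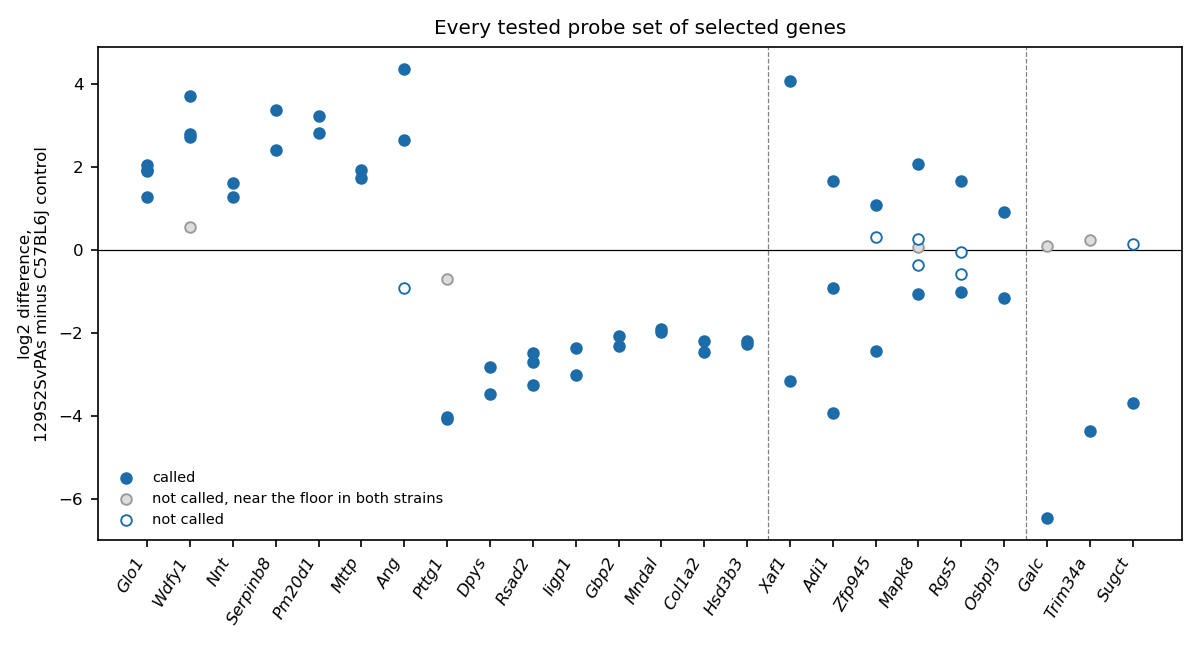
Log2 difference, 129S2SvPAs minus C57BL6J control, of each tested probe set (1 point each) of 24 genes; filled points were called in the fit over all probe sets, grey ones lay near the floor in both strains. Left of the first dashed line are genes whose called probe sets share a sign, between the lines genes with calls in both directions, and on the right 3 genes with 1 called probe set.

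Interferon response genes, which cells switch on after interferon signalling and which restrict viruses and intracellular microbes, were lower in 129S2SvPAs. Of 30 tested, 21 fell and none rose (22 lower and 0 higher at an unadjusted p under 0.05), with a median difference of -1.47 beside -0.003 over all genes and 5.11% of genes called lower. The mean level of the list, centred on every gene's own 12-array mean, was 0.51, 0.32 and 0.41 in the C57BL6J arrays and -1.17, -0.92 and -1.10 in the 129S2SvPAs arrays, with no overlap. The 21 included transcription factors (Irf7, Irf9), antiviral effectors (Rsad2, Ifit1, Ifit3, Oas1a, Oasl2, Bst2), the deconjugating protease Usp18, guanylate-binding proteins (Gbp2, Gbp3, Gbp6, Gbp7), immunity-related GTPases (Igtp, Irgm2, Iigp1) and tripartite motif proteins (Trim12a, Trim30a, Trim34a). They also included Ifi27l2a and Xaf1; the Xaf1 call is that of its brighter probe set and was contradicted by the other. The sensors Ifih1 and Ddx58 and the factor Stat2 differed by -0.17, -0.007 and -0.03 and were not called.

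Rsad2, the antiviral enzyme viperin, was at 8.63, 8.56 and 8.62 in C57BL6J and 5.71, 6.28 and 5.69 in 129S2SvPAs, a difference of -2.71 ± 0.21 (SE; limma adjusted p = 2.48e-05). It was lower at 3 of 3 probe sets. Bst2, the tetherin that retains budding virions, was at 7.64, 7.83 and 7.74 against 5.64, 5.98 and 5.80. Usp18, which removes ISG15 and dampens the interferon receptor, was at 5.75, 5.58 and 5.48 against 3.01, 3.41 and 2.73. Every C57BL6J array exceeded every 129S2SvPAs array for these 3 genes.

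The GTPases of intracellular defence followed the same pattern. Iigp1 was at 8.17, 7.84 and 8.41 against 4.87, 5.21 and 5.29 and was lower at 2 of 2 probe sets. Gbp2 was at 7.32, 6.75 and 6.95 against 5.0, 5.55 and 4.23, and Igtp was at 7.92, 7.05 and 7.96 against 6.09, 6.29 and 6.18. The strains did not overlap for any of the 3. Irf1, no member of the list, is known as a further interferon-induced factor; chosen after its values were seen, it differed by -1.27 ± 0.24 (SE).

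Leukocytes carry many of these transcripts, so their markers are given beside the list. Of 29 macrophage and leukocyte markers on the array, 22 were tested and 3 fell: Cd52 (-2.26) and the neutrophil calgranulins S100a8 (-2.23) and S100a9 (-2.48). The median was -0.58, beside -0.003 over all genes, of which 5.11% were called lower. Of the 22, 7 were lower and 0 higher at an unadjusted p under 0.05, and 18 differences were not above 0. The list level was 0.76, 0.18 and -0.08 in C57BL6J and -0.30, -0.04 and -0.98 in 129S2SvPAs. The strains overlapped there only by C57BL6J replicate 3 (-0.08) and 129S2SvPAs replicate 2 (-0.04). Without replicate 1 of the C57BL6J controls none of the 22 was called, and without replicate 3 of the 129S2SvPAs controls 1 was. The interferon count was 17 to 21 when any 1 array was left out. These counts do not show the part of leukocytes in the interferon difference, which was not tested.

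Promoters of the interferon genes are known for the interferon-stimulated response element. Its core was searched as GAAA, any 2 bases and GAAA again, on both strands, with overlapping matches allowed, in the 250 bases upstream of each start in RefSeq (GRCm38.p6). Of the 21 lower genes 17 had an entry and 11 of those (64.7%) held the core, beside 2 of 8 (25.0%) of the other tested list members with an entry, 305 of 9666 tested genes (3.16%) and 936 of 27025 genes with an entry (3.46%). These lists were compiled for interferon response, which itself selects such promoters, and a match is not a binding site. The last 150 bases before the start of 5 genes are given with the core in capitals, to show its place in genes of the antiviral, guanylate-binding and immunity-related GTPase groups. They lie at chr12:26456453-26456602 (minus strand) for Rsad2, chr8:71537473-71537622 (minus) for Bst2, chr3:142620513-142620662 (plus) for Gbp2, chr11:58199406-58199555 (plus) for Igtp and chr11:58214827-58214976 (plus) for Irgm2.
Rsad2: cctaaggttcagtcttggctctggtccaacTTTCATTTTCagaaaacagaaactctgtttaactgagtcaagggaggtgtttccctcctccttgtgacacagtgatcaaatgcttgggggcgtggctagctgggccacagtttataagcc
Bst2: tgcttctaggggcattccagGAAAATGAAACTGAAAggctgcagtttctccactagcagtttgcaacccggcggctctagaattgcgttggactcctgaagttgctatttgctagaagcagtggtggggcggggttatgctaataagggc
Gbp2: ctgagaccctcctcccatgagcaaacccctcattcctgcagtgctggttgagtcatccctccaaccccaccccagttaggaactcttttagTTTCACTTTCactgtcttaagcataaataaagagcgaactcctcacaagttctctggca
Igtp: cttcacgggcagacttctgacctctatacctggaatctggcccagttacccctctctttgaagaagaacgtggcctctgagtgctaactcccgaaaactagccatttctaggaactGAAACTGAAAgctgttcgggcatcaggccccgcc
Irgm2: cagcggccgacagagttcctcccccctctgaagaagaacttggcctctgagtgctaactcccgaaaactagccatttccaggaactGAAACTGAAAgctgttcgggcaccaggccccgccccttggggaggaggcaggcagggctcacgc

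Bst2 held 2 overlapping matches and the others 1 each. Igtp and Irgm2 were neighbours among the tested genes.

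Of 17 MHC and antigen presentation genes tested, H2-M3, Psmb8 and Psmb9 fell and H2-Bl rose, with a median of -0.63; 14 of the 17 differences were not above 0, and 8 were lower and 2 higher at an unadjusted p under 0.05. The list level was 0.38, 0.07 and 0.19 in C57BL6J and -0.41, -0.12 and -0.56 in 129S2SvPAs, without overlap. With the replicate block H2-Bl was not called (limma adjusted p = 0.0503). For scale in this paragraph, 3.32% of all genes were called higher and 5.11% lower. H2-M3, a nonclassical class I molecule, was at 5.58, 5.53 and 5.50 against 4.06, 4.06 and 4.10. Of 12 Slam, Fc gamma receptor and Ifi200 genes of chromosome 1, whose list level also did not overlap (0.31, 0.00 and -0.07 against -0.29, -0.15 and -0.39), Mndal alone was called, at 8.73, 9.33 and 8.92 against 6.83, 7.44 and 6.75. It belongs to the interferon-inducible Ifi200 family and was lower at 2 of 2 probe sets. The inhibitory receptor gene Fcgr2b differed by -0.75 ± 0.36 (SE; limma adjusted p = 0.249). Casp4, an inflammatory caspase known to be defective in 129 strains, was at 3.63, 3.56 and 3.27 against 2.42, 2.03 and 1.55, near or below the floor in both. Of 14 complement genes, C2 rose and the surface regulators Cd55 and Cd59a fell, but with the replicate block C2 and Cd59a were not called (limma adjusted p = 0.0586 and 0.0592). The complement level was 0.02, 0.12 and 0.00 against -0.26, -0.11 and -0.14.

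Podocyte markers were lower in 129S2SvPAs control glomeruli. Of 28 tested, 14 fell and none rose (18 lower and 0 higher at an unadjusted p under 0.05). The median difference was -1.26, and 5.11% of all genes were called lower. The list level was 0.54, 0.86 and 0.27 in C57BL6J and -0.21, -0.47 and -0.77 in 129S2SvPAs, without overlap. Podxl, the charged coat protein of podocytes, was at 11.67, 12.13 and 11.73 against 10.64, 10.96 and 10.07, a difference of -1.29 ± 0.23 (SE; limma adjusted p = 0.00583). Wt1, their master transcription factor, was at 7.41, 7.55 and 6.71 against 6.04, 4.84 and 5.01; it was not called without replicate 2 of the C57BL6J controls. Both genes separated the strains on all 6 arrays.

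Nphs1, which encodes the slit diaphragm protein nephrin, was at 7.64, 8.06 and 7.40 against 6.58, 6.12 and 5.55, a difference of -1.62 ± 0.45 (SE; limma adjusted p = 0.0493). With the replicate number as a block its limma adjusted p was 0.0773, and without any 1 of the 6 control arrays it was between 0.0605 and 0.184, so this call did not hold. The others that fell were Synpo, Kirrel, Ptpro, Thsd7a, Tcf21, Foxc2, Nes, Cdkn1c, Plce1, Sema3g and Nebl. Sema3g, a semaphorin secreted by podocytes, was at 10.07, 10.13 and 9.76 against 8.53, 8.23 and 7.70. Thsd7a, a foot process antigen of membranous nephropathy, was at 9.01, 9.18 and 8.66 against 7.29, 6.79 and 6.62.

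Endothelial and mural markers leaned the same way, with fewer of them called after adjustment. Both list levels were higher in each C57BL6J array than in any 129S2SvPAs array. Of all genes, 5.11% were called lower. Of 21 endothelial markers 6 fell (Pecam1, Eng, Robo4, Ptprb, Egfl7 and Cldn5) and none rose; all 21 differences were negative, with a median of -1.04, and 17 were lower and 0 higher at an unadjusted p under 0.05. Pecam1, a junctional adhesion molecule, was at 7.72, 8.85 and 8.32 against 6.56, 7.69 and 6.18, so that the highest 129S2SvPAs array reached nearly to the lowest C57BL6J array. Kdr, the VEGF receptor, and Ehd3, known as a glomerular endothelial marker, differed by -1.27 ± 0.38 and -1.22 ± 0.39 (SE) and were not called (limma adjusted p = 0.0645 and 0.0871). Of 15 mesangial, pericyte and smooth muscle markers 4 fell (Acta2, Tagln, Rgs5 and Foxd1), and 7 were lower and 0 higher at an unadjusted p under 0.05; the Rgs5 call was contradicted by a second probe set. The mesangial genes Pdgfrb and Itga8 differed by 0.21 ± 0.31 and 0.02 ± 0.40 (SE).

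The counts for these cell types depended on single arrays. Replicate 2 of the C57BL6J controls had the highest podocyte, endothelial and mural levels of the 6 (0.86, 0.53 and 0.15). Without it 5 podocyte, 1 endothelial and 2 mural markers were called, with medians of -1.06, -0.91 and -0.37. The endothelial count was 3 without replicate 1 of the 129S2SvPAs controls, 12 without replicate 2 and 2 without replicate 3, and it was 11 with the replicate number as a block. The podocyte count was 14 with the block.

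Tubule markers of the distal nephron leaned the other way, towards 129S2SvPAs, while those of the proximal tubule were mixed. Of 19 markers of the distal nephron (loop of Henle to collecting duct), 17 differences were above 0, with a median of 0.35, and 2 genes rose. Their list level was -0.19, 0.24 and -0.03 in C57BL6J and 0.45, 0.41 and 0.48 in 129S2SvPAs. Those that rose were the calcium-binding proteins Pvalb, at 8.17, 7.57 and 7.18 against 9.39, 10.31 and 10.38, and Calb1, at 12.04, 12.29 and 11.37 against 13.02, 13.03 and 12.75. Leaving out 1 array ended the Calb1 call for 4 of the 6 control arrays. In the GN arrays the Calb1 difference was reversed, with means of 10.98 in C57BL6J and 10.65 in 129S2SvPAs. Of 25 proximal tubule markers 3 rose (Slc5a12, Cyp2e1 and Hpd) and Kap fell, a call that ended for 5 of the 6 control arrays. The median of the 25 was 0.14, 14 of the differences were above 0, and the list level overlapped between strains. Over all genes 3.32% were called higher and 5.11% lower. With the loop and distal level as a covariate, an alternative added after the data were seen, 5 podocyte markers were called and their median was -1.19; the interferon count was 13 and its median -1.22. How far the tubule content of the preparations contributed to the differences in glomerular markers was not tested further.

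**Figure D4:**
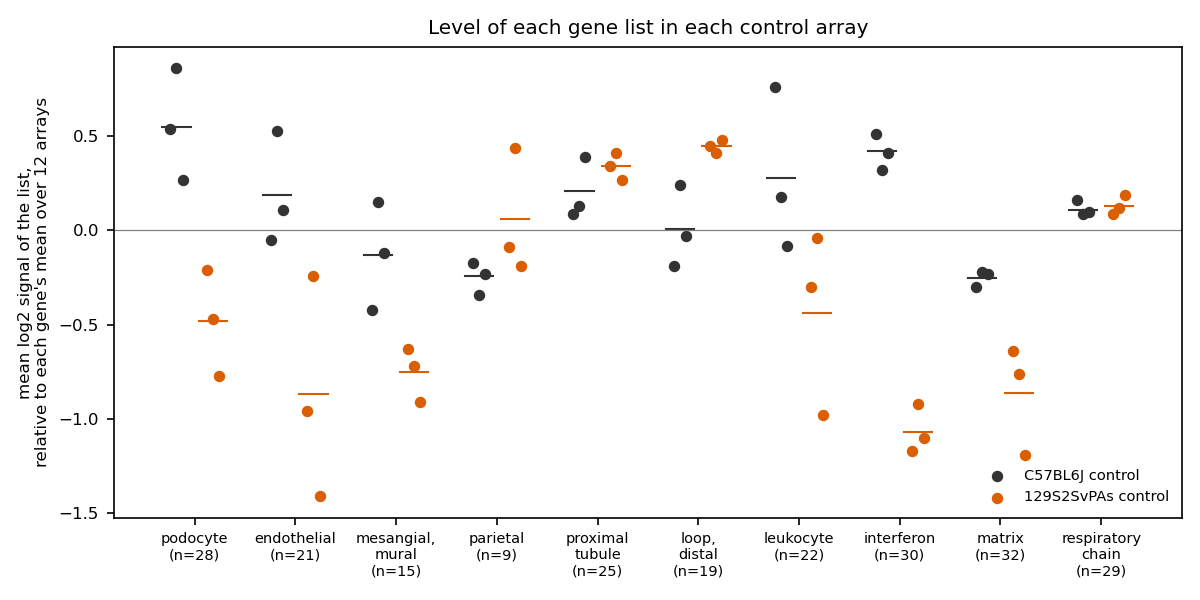
Mean log2 signal of 10 gene lists on each control array, centred on every gene's own 12-array mean (points), with strain means as short lines; n is the number of genes tested. The interferon, podocyte, endothelial, mural and matrix levels are higher in each C57BL6J array than in any 129S2SvPAs array. The loop and distal level is lower, and the parietal, proximal tubule, leukocyte and respiratory chain levels overlap.

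Matrix genes included 7 that fell among 32 tested and none that rose, beside 5.11% of all genes called lower. Their median was -0.38. The 7 were the basement membrane components Lamc1, Nid1, Hspg2 and Col18a1, the fibrillar collagens Col1a2 and Col5a2, and the extracellular sulfatase Sulf1. Lamc1, the laminin gamma 1 chain, was at 5.70, 5.93 and 5.84 against 4.43, 4.44 and 4.38. Col4a3 and Col4a4, chains of the mature glomerular basement membrane, differed by -0.98 ± 0.30 and -0.29 ± 0.23 (SE) and were not called (limma adjusted p = 0.0761 and 0.528). Without replicate 2 of the C57BL6J controls 4 matrix genes were called.

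Of 9 parietal epithelial markers Krt18 and Cldn1 rose and Ncam1 fell, beside 3.32% of all genes called higher and 5.11% lower. Krt18, a simple epithelial keratin, was at 5.88, 5.80 and 5.67 against 6.49, 7.63 and 6.77. Leaving out 1 array ended its call for 4 of the 6 control arrays. Cldn1, a claudin of the capsule, had a limma adjusted p of 0.0493 that became 0.0716 with the block. Of 22 injury and simple epithelial genes 1 rose and 2 fell, beside the same shares of all genes. The injury markers Lcn2 and Havcr1 were between 2.60 and 3.81 on each control array, close to the floor.

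Detoxification genes moved in both directions. Over all genes, 3.32% were called higher and 5.11% lower. Of 37 genes of glutathione, NRF2 targets and detoxification 6 rose (Gstm5, Gstt1, Gstt2, Gstk1, Glo1 and Nnt) and 2 fell (Gsta4 and Gpx6), with a median of -0.03. Coagulation genes did likewise: of 20, Procr rose and F5, F8, F2r and Anxa2 fell. Procr, the endothelial receptor for protein C, was at 4.34, 5.19 and 3.76 against 6.13, 7.27 and 5.83. F2r, the thrombin receptor, was at 10.42, 10.99 and 10.69 against 9.11, 9.68 and 8.89.

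The counts in the following lists are given beside 8.43% of all genes called and 5.11% called lower. Of 26 fatty acid and lipid genes Fabp4, Plin2 and Scd2 fell, while the median was 0.15 and 15 differences were above 0 (5 higher and 6 lower at an unadjusted p under 0.05). Of 31 cell cycle genes Cenpa, Mcm6 and Pttg1 fell, with a median of -0.27; with the replicate block Cenpa was not called (limma adjusted p = 0.0611). Mcm6, a subunit of the replicative helicase, was at 6.18, 5.95 and 6.23 against 2.83, 3.61 and 3.85. The small heat shock protein Hspb1 was the 1 gene called among 25 immediate early and heat shock genes. It overlapped between strains, at 8.34, 9.72 and 9.31 against 6.65, 8.37 and 7.23, and its call ended for 4 of the 6 control arrays when 1 was left out.

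Several lists gave no call. None of 29 respiratory chain genes passed the limma test, with differences from -0.20 to 0.22 and a median of 0.04. None of 17 clock genes (median -0.25), 10 kallikreins (0.08), 8 renin-angiotensin genes (-0.06) and 8 red cell and platelet markers (-0.25) was called either. Klk1, the tissue kallikrein, was at 14.24, 14.55 and 13.97 against 14.06, 13.78 and 13.59 and overlapped between strains. At an unadjusted p under 0.05, 0 respiratory chain genes, 1 clock gene, 3 kallikreins, 1 renin-angiotensin gene and 3 red cell and platelet markers would have passed, and limma was the one tool run.

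Of 17 tested genes known for differences among inbred strains, 8 were called, beside 8.43% of all genes. The list was chosen with earlier results of these data known, so its share is not independent of them. Nnt, Glo1 and Wdfy1 were higher, and Casp4, Pttg1, Trim12a, Trim30a and Erdr1 lower in 129S2SvPAs. Some were counted above as well: Trim12a and Trim30a as interferon genes, Pttg1 as a cell cycle gene, and Nnt and Glo1 as detoxification genes. Ifi202b, an Ifi200 gene, was at 3.17, 3.22 and 3.20 against 3.30, 3.90 and 3.33, near the floor in both strains.

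Called genes that neighbour each other on a chromosome, with no other tested gene between them, formed 9 runs of at least 3 with the same direction, holding 28 of 11905 placed genes. The longest, on chromosome 10, was of Ddt, Gstt3, Gstt1 and Gstt2, which were higher in 129S2SvPAs; these are a tautomerase and theta-class glutathione transferases. On chromosome 13, Bhmt, Bhmt2 and Dmgdh, enzymes of betaine and dimethylglycine metabolism, were higher. Bhmt, which remethylates homocysteine, was at 8.03, 8.56 and 7.90 against 12.03, 10.82 and 10.13, a difference of 2.83 ± 0.46 (SE; limma adjusted p = 0.00336).

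On chromosome 19, Cpn1, Cyp2c23 and Erlin1 were lower. Cpn1, the catalytic subunit of the kinin-cleaving carboxypeptidase N, was at 10.26, 10.22 and 10.40 against 7.14, 6.66 and 6.88. Cyp2c23, the arachidonic acid epoxygenase of mouse kidney, was at 9.27, 9.35 and 9.08 against 6.16, 6.39 and 5.10. Neither overlapped between strains. The other lower runs were Mfap3, Galnt10 and 2010001A14Rik, then Mrpl22, Igtp and Irgm2 (both chromosome 11), Zfp994, Zfp944 and Zfp758, then Adgrf5, Mep1a and Pla2g7 (both chromosome 17), Tifa, Ap1ar and Fam241a (chromosome 3), and Cd52, Sh3bgrl3 and Cep85 (chromosome 4). Adgrf5, an adhesion receptor, was lower at its brighter probe set and differed by -0.03 ± 0.33 (SE) at the other, where the strains overlapped. In the runs of Cpn1 (chromosome 19) and Zfp994 (chromosome 17) no member lost its call when 1 control array was left out. In each other run at least 1 member did, Mfap3 and Mrpl22 whichever control array it was. Near copies within a run, such as the transferases and zinc finger genes, are uncertain where they share probes.

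The GN arrays gave the same strain contrast in other mice. With each condition fitted alone, 740 genes (6.21%) were called in the controls and 578 (4.85%) in the GN arrays. With the same sign in both, 261 were called, 35.3% of the control list and 45.2% of the GN list; with the replicate block that count was 128. Of the 740, 676 (91.4%) had the same sign in the GN arrays, beside 66.6% of all genes. In 471 of them (63.6%) the GN arrays of the strains did not overlap in that direction, beside 27.9% of all genes that did not overlap in either direction. Leaving out 1 array moved the 261 to between 124 (without C57BL6J GN replicate 2) and 313 (without 129S2SvPAs GN replicate 1, which stood apart from its group). It was 138 to 171 without C57BL6J GN replicate 1, 129S2SvPAs GN replicate 2 or 3, or any 1 of the 3 C57BL6J controls.

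The largest differences recurred in the GN mice: Ugt2b38 differed there by -9.08, Galc by -6.07, Akr1c21 by -6.44, Gdpd3 by 5.93, Rnase4 by 4.84 and Abhd1 by 4.55. Of all 1005 genes called in the controls, 906 (90.1%) had the same sign in the GN arrays, and in 634 the strains also did not overlap there. Among the 21 interferon genes, Xaf1 with its conflicting probe sets included, these counts were 21 and 20. Among the 14 podocyte markers they were 14 and 8, among the 6 endothelial markers 6 and 2, and among the 4 mural markers 4 and 1. The medians of these 3 lists in the GN arrays were -0.69, -0.43 and -0.31. Of the 2 distal nephron markers called, 1 kept its sign and 0 did so without overlap. The median of the distal list in the GN arrays was -0.08, so its lean towards 129S2SvPAs was not seen there. The 8 called genes with known strain differences kept their sign, and none of them overlapped between strains there.

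**Figure D5:**
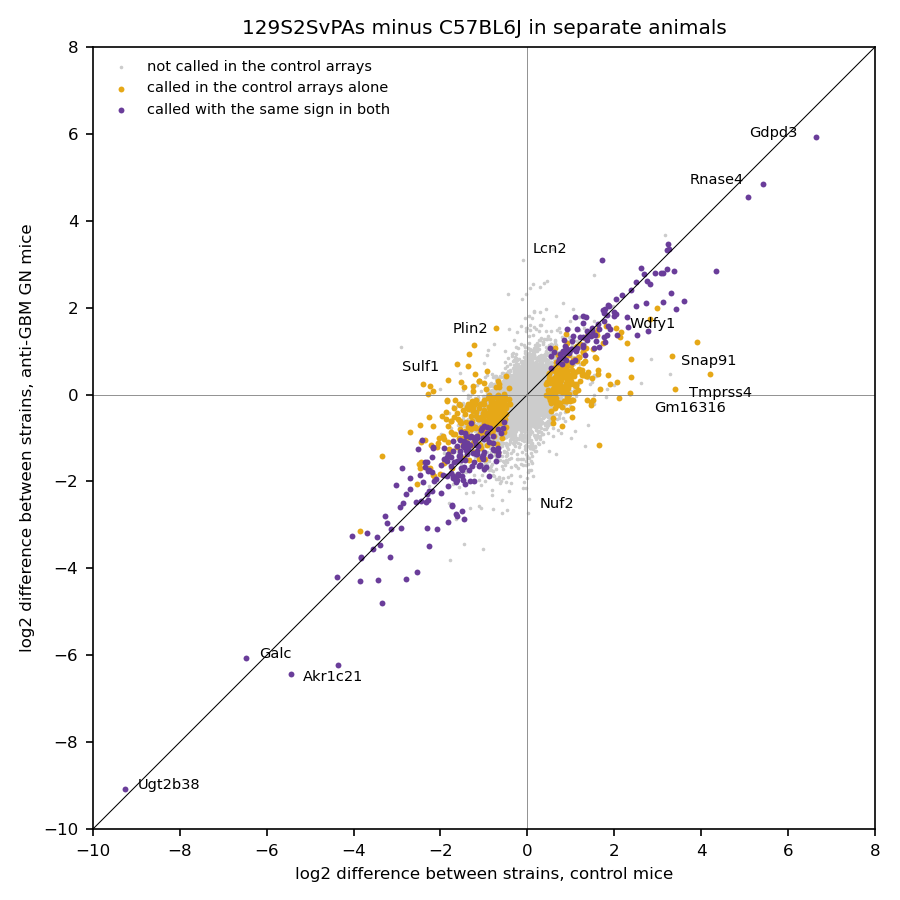
Log2 difference, 129S2SvPAs minus C57BL6J, of each tested gene in the control mice (horizontal axis) and in the GN mice (vertical axis), with the line of equality. Purple points are the 261 genes called with the same sign when each condition was fitted alone; Tmprss4, Snap91 and Gm16316 lie near 0 to 1.20 in the GN mice while differing by more than 3 in the controls.

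The strain difference itself differed between control and GN mice for 67 genes (0.562%) in the limma fit, or 33 with the replicate block, and 34 of the 67 were among the 1005 called in the controls. Tmprss4 differed by 4.21 in the controls and 0.47 in the GN mice, where both strains were near the floor (2.74 ± 0.06 and 3.21 ± 0.30, SD, n = 3 each). Gm16316, a predicted gene, differed by 3.40 in the controls and 0.13 in the GN mice. Sulf1 was lower in 129S2SvPAs controls by -2.41 and differed by 0.25 in the GN mice. Plin2, a lipid droplet coat protein, was lower in the 129S2SvPAs controls (-1.23) and higher in the 129S2SvPAs GN mice (1.14). Leaving out 1 array moved the count of 67 to between 15 and 136: it rose to 136 without 129S2SvPAs GN replicate 1 and fell to 40 or fewer without any other array, to 15 without 129S2SvPAs control replicate 2.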

How the data were processed

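Total RNA of isolated glomeruli was hybridised to Affymetrix arrays, biotin-labelled. The authors deposited 1 table of log2 signals, per the values (1.12 to 15.02); the submitters' processing notes name MAS5 and GCRMA without saying which made it, and its background correction and normalization were kept. The table pairs 34957 of 45037 probe sets with exactly 1 symbol; 920 with several and 9160 with none were left out. Probe sets above the table's median (3.03) on at least 3 arrays were tested: 20321 probe sets, and 11921 genes by the brightest probe set. limma 3.58.1 (R 4.3.3) fitted 4 group means over 12 arrays, with eBayes and Benjamini-Hochberg adjustment, called at 0.05. Same-numbered control arrays of the strains deviated together (r = 0.244, 0.284 and 0.239). The negative values of the other pairs (r from -0.16 to -0.085) add nothing to this, because deviations from a group mean cancel within each strain. This pairing comes from the data, not the labels, and a fit with the number as a block was run beside the main one. Named genes were the largest differences, those whose probe sets agree or disagree most, near on-off genes, the lowest p of each list, neighbours in runs, and fixed genes; other list members are named where counted. The comparison, members and lists were chosen with earlier results of these data known. The fit was tested on simulated data. Alternatives were other normalizations, filters, probe set summaries, priors, array weights, covariates and leaving out arrays. Symbols came from GEO's platform annotation, which can be old; depth has no meaning for arrays, and 3 arrays per group limit the precision.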

Additional observations from a re-analysis of the deposited data

Results flagged for a closer look

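The strain difference in the controls and in the GN mice differed by a test of the difference itself in 67 genes (limma interaction contrast, Benjamini-Hochberg adjustment over 11921 genes), a count that ranged from 15 (without 129S2SvPAs control replicate 2) to 136 (without 129S2SvPAs GN replicate 1) when 1 array was left out and was 33 with the replicate block. The 9 of them that are named are given here. The value given is the GN difference minus the control difference on the log2 scale. It was -3.73 for Tmprss4, -3.27 for Gm16316 and -2.71 for Snap91, which were higher in the 129S2SvPAs than in the C57BL6J controls. It was 2.66 for Sulf1 and 2.37 for Plin2, which were lower in the 129S2SvPAs controls. The other 4 showed control differences of at most 0.39 in size, and their values came from the GN mice: 3.22 for Lcn2, an iron-scavenging injury marker, 2.16 for the acute-phase inhibitor Serpina3n, -2.45 for the kinetochore gene Nuf2 and -1.69 for the checkpoint kinase Bub1.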

How the results depend on the processing

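The total of 1005 called genes became 570 at an absolute log2 difference of at least 1, 1601 with array weights (1003 of them among the 1005), 604 with the proximal tubule level as a covariate (575 among the 1005) and 219 with the endothelial level (199 among the 1005). With covariates added after seeing the data it was 91 (podocyte level) and 448 (loop and distal level); the median SE over all genes grew from 0.186 to 0.357 and 0.228. The counts under quantile normalization (1013), a median shift (1025), no filter (763), a stricter filter (822), a filter on the control arrays (1027), the mean of all probe sets (1047), a trended robust prior (996), the 6 control arrays alone (740) and the replicate block (1095) were within 1.5 times. Leaving out 1 array gave totals of 503 to 1288 genes (1005 with all arrays), 748 to 1474 probe sets (1483), 124 to 313 genes called in both conditions (261) and 15 to 136 differences of differences (67). The 1483 fell to 966 without C57BL6J control replicate 3 and 987 without 129S2SvPAs control replicate 1. The 261 became 125 with no filter and 128 with the replicate block, and the 67 became 33 with the block. By the mean of all probe sets, Xaf1 (0.46), Adi1 (-1.07), Rgs5 (0.00) and Osbpl3 (-0.068) turned; with the podocyte covariate Nphs1 did (0.36). The first 4 had probe sets called in both directions, and Nphs1 is itself a member of the podocyte list behind that covariate. The cause was not tested further. Of 129 named genes called, 30 were called with the same sign under all 26 settings, among them Ugt2b38, Galc, Akr1c21, Gdpd3, Rnase4, Rsad2, Bst2, Glo1, Wdfy1 and Pttg1; Gm16316 was called wherever it was tested. Leaving out 1 control array ended the call of Mfap3, Mrpl22 and Nphs1 whichever array it was, and of 38 other named genes for at least 1 of the 6. Those lost without 1 array alone were Wt1, Eng, Tagln, Anxa3, Bhmt2 and Galnt10 (C57BL6J control replicate 2) and Cd52 (replicate 1). The block ended the calls of Cldn1, H2-Bl, C2, Cd59a, Cenpa, Nphs1 and Ap1ar (adjusted p from 0.0503 to 0.0773) and no other named call. Under the podocyte covariate 4 interferon genes were called with a median of -1.63, and under the endothelial one 8 with -1.21.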
